A study of Homo sapiens with 5 samples.

Results

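SLC6A4 encodes the serotonin transporter, and its RNA was examined on 5 expression arrays of KM-H2, an established Hodgkin lymphoma cell line of B lineage. The gene was taken as every probe set whose only symbol in the platform's annotation is SLC6A4. That rule found 1 probe set (207519_at), which makes SLC6A4 1 of the 7713 genes with a probe set of a single symbol. The LY294002 group held 2 arrays of cells kept for 16 hours with 30 uM LY294002, a morpholine compound used to inhibit phosphoinositide 3-kinase (PI3K) and also known to bind mTOR and BET bromodomains. The DMSO group held 3 arrays of cells kept for 16 hours with the solvent DMSO. Both groups grew in RPMI1640 with 10% FCS and 1% penicillin and streptomycin, and all arrays come from this single cell line without genetic change named in the labels. Triplicates had been planned, and 1 further array left out by the submitters for high background. The labels do not say whether the replicates came from separate cultures, so errors and p-values describe the spread of these 5 arrays and may be no more than technical. SLC6A4 was chosen by its measured difference between these same groups, so its own difference is given as a description, without a p-value.

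The serotonin transporter is a membrane protein that carries serotonin from outside the cell back inside, driven by the sodium and chloride gradients. It ends serotonin signalling at synapses of serotonergic neurons and fills platelets with serotonin, and it is the target of the selective serotonin reuptake inhibitor antidepressants. It belongs to the SLC6 family, whose other members carry noradrenaline, dopamine, GABA, glycine, taurine, creatine and amino acids. Lymphocytes and B cell lines have also been described to carry the transporter.

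The stretch of chromosome 17 just before the annotated start of the gene is shown as sequence context; where transcription starts in KM-H2 was not measured. It covers chr17:30235698-30235947 on the minus strand of GRCh38.p14 and is credited to RefSeq. The 250 bases are printed 5′ to 3′ in the direction of transcription, with 2 motif matches in capitals.
SLC6A4 upstream stretch: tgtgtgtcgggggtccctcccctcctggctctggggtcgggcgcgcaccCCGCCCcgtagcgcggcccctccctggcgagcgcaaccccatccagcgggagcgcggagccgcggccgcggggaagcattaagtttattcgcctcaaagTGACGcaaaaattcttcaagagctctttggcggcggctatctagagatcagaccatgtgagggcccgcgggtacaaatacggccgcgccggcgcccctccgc
The first match is a GC box (GGGCGG, here on the opposite strand) that begins 201 bases before the start. The second is the half-site of the cAMP response element (TGACG, on the strand printed), which begins 102 bases before it. The GC box letters occur in 42.6% and the half-site letters in 21.2% of 35116 promoter stretches of the same length, so neither match is rare. Of 9 motifs searched on both strands these were the 2 with a match. The other motifs were the FOXO site (GTAAACA, in 2.98% of promoters), the full cAMP response element (TGACGTCA, in 1.65%), the AP-1 site (TGANTCA, in 6.57%), the TATA box (TATAAA, in 10.7%), the E-box (CACGTG, in 6.34%), the SPIB and PU.1 core (GAGGAA, in 23.6%) and the GATA site (AGATAA, in 9.17%). The half-site letters are part of the full element, so these 2 motifs overlap by construction. The motifs were chosen after the expression values had been seen, and a match is only a match of letters. G and C made up 67.6% of the stretch, against a median of 58% over all promoters, and it held 29 CG dinucleotides against a median of 11.

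SLC6A4 was at 6.69 and 6.61 on the LY294002 arrays, against 8.41, 8.42 and 8.25 on the DMSO arrays, in log2 probe set values. Both LY294002 arrays lay below all DMSO arrays, and the groups were separated by 1.55 between the lowest DMSO and the highest LY294002 value. The means were 6.65 ± 0.06 (SD, n = 2) with LY294002 and 8.36 ± 0.10 (SD, n = 3) with DMSO. The difference was -1.71 ± 0.07 on the log2 scale (limma standard error), a probe set value 3.27-fold lower, or 30.6% of that with DMSO. Array values have no true zero, and the background of this probe set is not known. The percentage is therefore not a measure of the transcript that remained. Setting each LY294002 array against each DMSO array gave differences from -1.81 to -1.55. The range within a group was 0.08 over the LY294002 arrays and 0.17 over the DMSO arrays. In RNA from whole cultures, fewer cells with the transcript and less transcript per cell cannot be told apart.

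**Figure D1:**
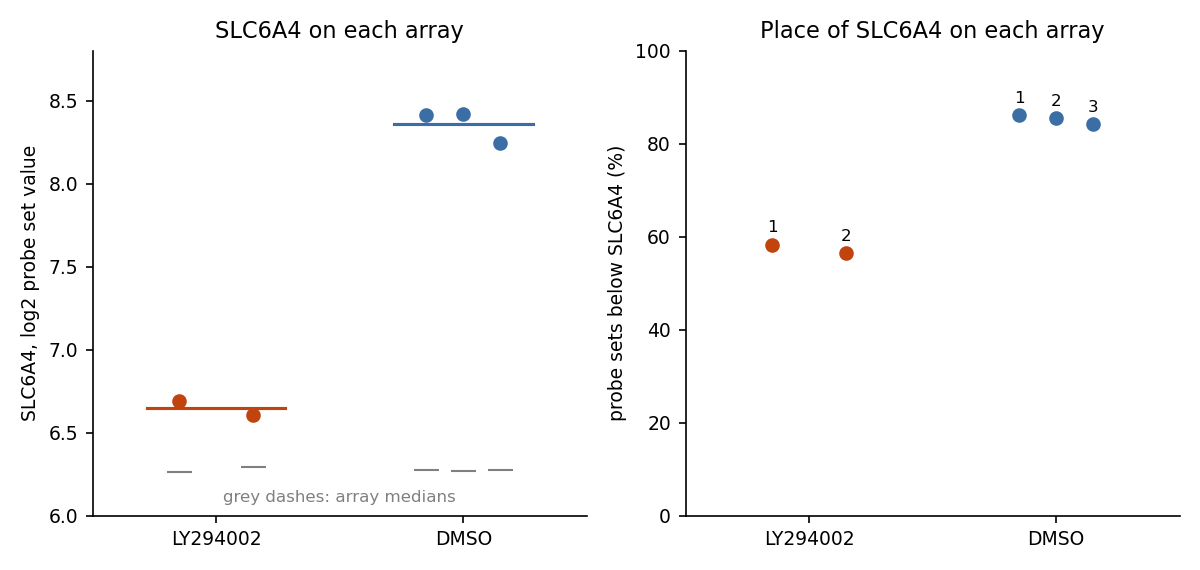
SLC6A4 on each array, as its log2 probe set value (left, lines are group means and grey dashes the array medians) and as the percent of probe sets with a lower value (right, numbers are replicates). The LY294002 arrays sit at 6.69 and 6.61, and the DMSO arrays at 8.41, 8.42 and 8.25.

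The place of SLC6A4 among all probe sets moved with its value. It ranked 3648 and 3813 from the top of 8746 probe sets on the LY294002 arrays, against 1218, 1270 and 1386 on the DMSO arrays. As a share, 58.3% and 56.4% of probe sets had a lower value on the LY294002 arrays, against 86.1%, 85.5% and 84.2% on the DMSO arrays. Relative to the array median, SLC6A4 stood 0.43 and 0.32 higher with LY294002, against 2.14, 2.15 and 1.97 higher with DMSO. The array medians themselves lay between 6.26 and 6.29, so they differed far less than SLC6A4 did. A rank sets probe sets of different binding strength side by side, and it is therefore a description of the arrays and not a measure of copies per cell.

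The spread over the DMSO arrays alone does not enter the choice of the gene. The DMSO SD of 0.10 was larger than that of 74.9% of all probe sets, whose median SD was 0.06. Among the 1002 probe sets whose DMSO mean lay within 0.5 of that of SLC6A4, the SD of 61.5% was smaller and the median was 0.08. The DMSO values of SLC6A4 thus varied somewhat more than those of a typical probe set of its level, with DMSO replicate 3 the lowest.

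SLC6A4 had the second lowest difference of all genes, which is part of how it was picked. The next larger fall belonged to TFEC, a transcription factor of the MITF family, at -1.85, and the next smaller one to MMP12, a macrophage metalloelastase, at -1.61. In all, 8 genes were lower by a factor of 2 or more. Of the 1106 genes with a DMSO mean at least as high as that of SLC6A4, which is itself among them, 1 had a LY294002 mean at or under 6.65, and that 1 was SLC6A4. These counts rest on the contrast that chose the gene and support nothing further.

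**Figure D2:**
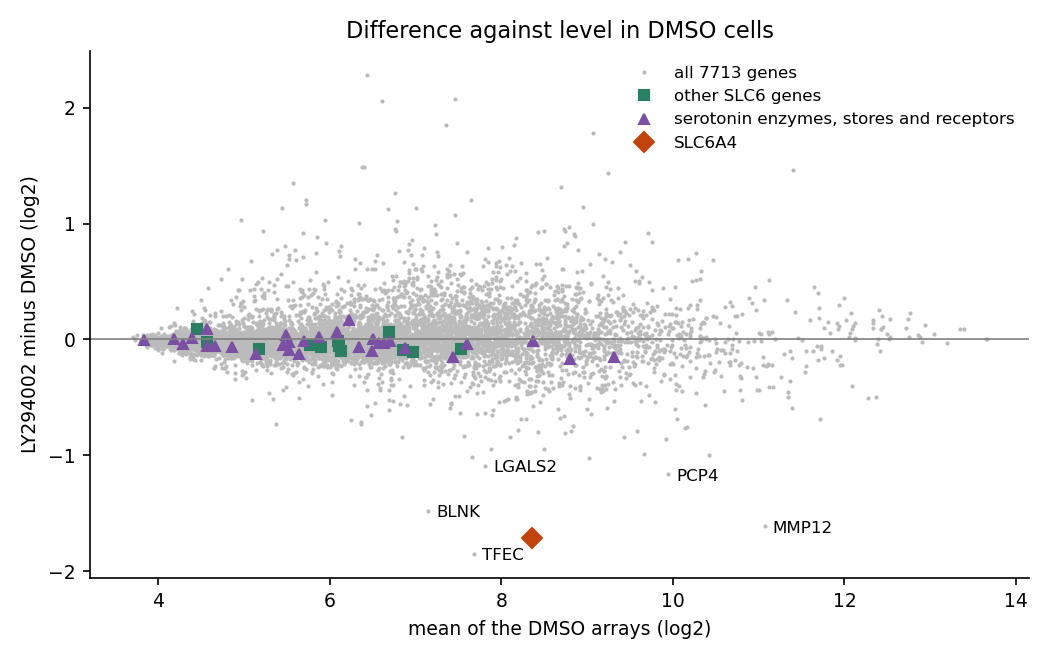
Difference LY294002 minus DMSO (log2) against the mean of the DMSO arrays (log2) for all 7713 genes, with SLC6A4, the other SLC6 genes and the serotonin enzymes, stores and receptors marked. SLC6A4 lies at -1.71 with a DMSO mean of 8.36, while the other marked genes lie between -0.17 and 0.17.

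The remaining SLC6 genes serve as background for the transporter. Of 18 listed, 12 had a probe set here, and 0 of 12 passed limma in either direction (adjusted over all probe sets, threshold 0.05), where 0.908% of all genes were called (0.609% higher and 0.298% lower; 0.96% of all probe sets). At an unadjusted p under 0.05 the count was also 0. Their smallest adjusted p was 0.457. Their differences ran from -0.10 (SLC6A2) to 0.09 (SLC6A6). Of the 12, 10 were below 0, against 55.5% of all genes, and the median was -0.06, against -0.01 over all genes. Without LY294002 replicate 1 that median was -0.02.

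The transporters of the other monoamines are those closest to SLC6A4 in what they carry. SLC6A2, which carries noradrenaline, was at 6.76 and 6.97 with LY294002, against 6.93, 6.93 and 7.03 with DMSO. SLC6A3, which carries dopamine, was at 6.05 and 6.12 with LY294002, against 6.0, 6.17 and 6.12 with DMSO. In both genes the groups overlapped, with differences of -0.10 ± 0.08 for SLC6A2 (limma adjusted p = 0.496) and -0.01 ± 0.06 for SLC6A3 (limma adjusted p = 0.923).

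The transporters of GABA, betaine and glycine had differences of at most 0.10 in size. SLC6A13, a GABA transporter, was at 7.43 and 7.48 with LY294002, against 7.49, 7.49 and 7.62 with DMSO. It was the 1 of 12 whose groups did not overlap, both LY294002 arrays lying lower, as was the case for 13.4% of all genes. Its difference was -0.08 ± 0.05 and did not pass (limma adjusted p = 0.470). SLC6A11, another GABA transporter, had the widest range over the 5 arrays in the family, 0.33, because DMSO replicate 1 stood at 6.12 and the other arrays at 5.79 to 5.84. SLC6A12, which carries betaine and GABA, differed by -0.09 ± 0.07. For the glycine transporters the differences were -0.10 ± 0.07 (SLC6A5) and -0.05 ± 0.06 (SLC6A9).

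The transporters of amino acids, taurine and creatine completed the family. The taurine transporter SLC6A6 had the highest difference of the family, with values of 4.59 and 4.5 with LY294002, against 4.42, 4.54 and 4.41 with DMSO, and a difference of 0.09 ± 0.06. The creatine transporter SLC6A8 differed by 0.06 ± 0.05, and both its groups held a value of 6.72. The proline transporter SLC6A7 differed by -0.06 ± 0.04, SLC6A14, which carries neutral and cationic amino acids, by -0.02 ± 0.03, and SLC6A20, which carries proline and other imino acids, by -0.08 ± 0.07. In each of these genes the groups overlapped. A result that misses the threshold does not show that a gene was the same in both groups, and 4 of the 12 had a DMSO mean above the array medians.

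**Figure D3:**
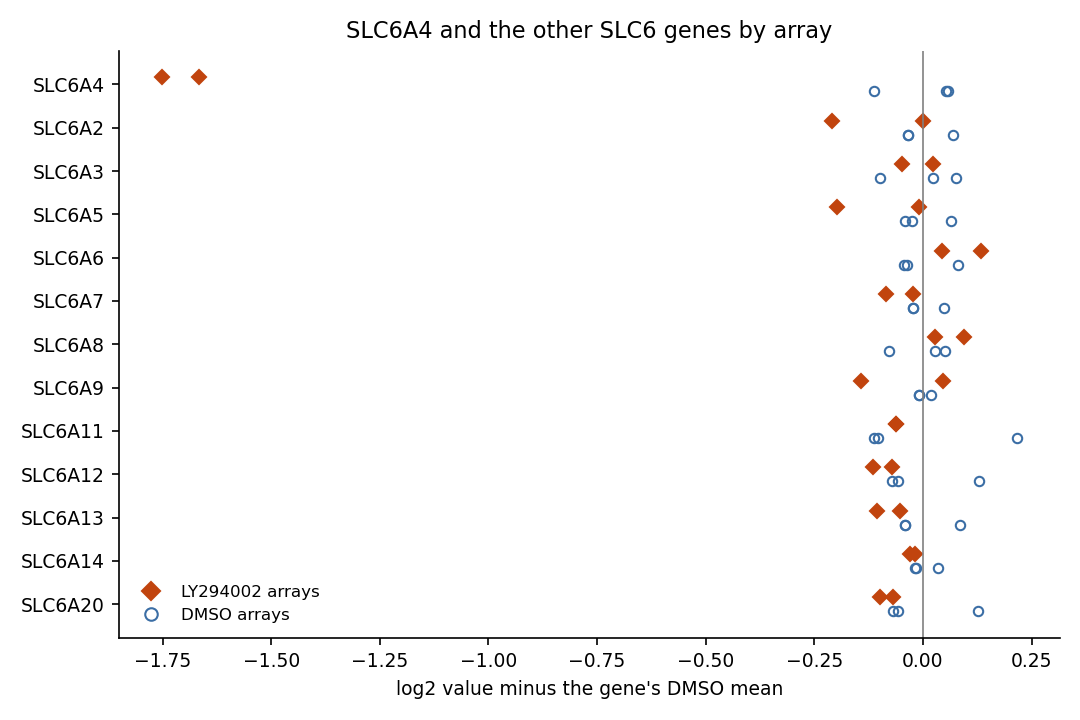
Values of SLC6A4 and the 12 other measured SLC6 genes on each array, as the log2 value minus the gene's own DMSO mean (filled diamonds LY294002, open circles DMSO). The SLC6A4 diamonds lie at -1.67 and -1.75, and the largest difference between group means among the other genes is 0.10 in size.

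The genes that make, store and break down serotonin were listed next. Serotonin is made from tryptophan by tryptophan hydroxylase with the cofactor tetrahydrobiopterin, and it is degraded by monoamine oxidase. Of 17 listed genes 16 were measured, and 0 passed limma in either direction, against 0.908% of all genes. An unadjusted p under 0.05 was found in 2 of the 16, against 17.1% of all genes. TPH1, the tryptophan hydroxylase of tissues outside the brain, stood at 3.83 on both LY294002 arrays, against 3.85, 3.83 and 3.83 on the DMSO arrays, close to the lowest value in the table, 3.68. DDC, which turns its product into serotonin, differed by 0.04 ± 0.10, with overlapping groups.

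Enzymes of the tetrahydrobiopterin cofactor gave the widest differences of that list. QDPR, which recycles the cofactor, was at 8.72 and 8.55 with LY294002, against 8.78, 8.83 and 8.81 with DMSO, a difference of -0.17 ± 0.06 (limma adjusted p = 0.270; 0.0418 after quantile normalization). PTS, which acts in its synthesis, was at 6.30 and 6.48 with LY294002, against 6.24, 6.20 and 6.22 with DMSO, a difference of 0.17 ± 0.06 (limma adjusted p = 0.276). In QDPR both LY294002 arrays lay below the DMSO arrays, and in PTS both lay above them. SPR, which acts in the last step of synthesis, differed by -0.15 ± 0.08. The vesicle transporter SLC18A1, which loads monoamines into storage vesicles, differed by -0.13 ± 0.08, and AANAT, an enzyme of melatonin synthesis, by 0.02 ± 0.05. The median difference of the list was -0.04.

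Of the serotonin receptor genes listed, 14 of 14 were measured, and the list does not hold every receptor gene. Of these, 0 of 14 passed limma, against 0.908% of all genes. The number at an unadjusted p under 0.05 was 0, against 17.1% of all genes. Their differences ran from -0.15 to 0.09, with a median of -0.03. HTR3A, a subunit of the serotonin-gated ion channel, was at 7.12 and 7.46 with LY294002, against 7.43, 7.43 and 7.45 with DMSO, so that LY294002 replicate 1 alone lay below the DMSO arrays, and its difference was -0.15 ± 0.11. The G protein-coupled receptors HTR4 and HTR1B differed by -0.12 ± 0.08 and -0.10 ± 0.05. At the other end of the list HTR2B differed by 0.09 ± 0.06, HTR2A by 0.06 ± 0.05 and HTR7 by 0.02 ± 0.03. Of the 4 listed organic cation and monoamine transporters that carry serotonin at low affinity, SLC22A2 was the 1 measured, with a difference of -0.03 ± 0.03.

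Proteins that bind the transporter or act on its traffic and activity were the next group. Of 23 listed genes 20 were measured, and 0 passed limma in either direction, against 0.908% of all genes. An unadjusted p under 0.05 was found in 5 of the 20, against 17.1% of all genes. Both LY294002 arrays lay above the DMSO arrays in 6 of these genes, against 16.2% of all genes. They lay below them in 2, against 13.4% of all genes. SGK1, a kinase related to AKT that is known to be regulated by PI3K, was at 6.45 and 6.34 with LY294002, against 5.84, 6.03 and 5.94 with DMSO. Its difference was 0.46 ± 0.07 (limma adjusted p = 0.0765), and it passed when the values were normalized by quantiles or cyclic loess, or when dim probe sets or those with identical values within a group were left out.

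The AKT kinases had differences of opposite sign. AKT1 was at 8.87 and 8.63 with LY294002, against 8.34, 8.53 and 8.31 with DMSO, a difference of 0.35 ± 0.11 (limma adjusted p = 0.214). AKT2 was at 4.96 and 5.02 with LY294002, against 5.18, 5.25 and 5.19 with DMSO, a difference of -0.22 ± 0.04 (limma adjusted p = 0.0827). Neither passed, and the AKT2 probe set was dim on all arrays. SEC24C, the coat protein known to carry the transporter out of the endoplasmic reticulum, differed by 0.26 ± 0.08 (limma adjusted p = 0.218). PRKCB, a protein kinase C isoform, and SNCG, a synuclein, were at -0.10 ± 0.06 and -0.08 ± 0.05.

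Transcription factors tied to the SLC6A4 gene or to serotonergic neurons gave no call among 13 measured of 14 listed, with 2 at an unadjusted p under 0.05 (limma). NR3C1, the glucocorticoid receptor, was at 7.69 and 7.32 with LY294002, against 7.0, 6.76 and 7.03 with DMSO, a difference of 0.58 ± 0.15 (limma adjusted p = 0.165). CTCF, a zinc finger protein described to bind a repeat in an intron of the human gene, differed by 0.23 ± 0.05 (limma adjusted p = 0.117). Both LY294002 arrays lay above the DMSO arrays in these 2 genes. GATA3, a factor of T cells and, in mice, of some serotonergic neurons that Hodgkin cells also express, was at 9.26 and 9.07 with LY294002, against 9.11, 9.76 and 9.79 with DMSO. Its groups overlapped because DMSO replicate 1 lay low, and its difference was -0.39 ± 0.24 (limma adjusted p = 0.450). TFAP2A and CREB1 differed by -0.12 ± 0.09 and -0.11 ± 0.14, and LMX1B, a factor of serotonergic neurons, by 0.05 ± 0.04. Over these 6 lists, 0 of 76 measured genes passed limma, against 0.908% of all genes. Of the 76, 9 (11.8%) had an unadjusted p under 0.05, against 17.1% of all genes.

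The genes near SLC6A4 on chromosome 17 were compared in the order of the RefSeq gene table, taking the 5 nearest with a probe set on either side. Between the outermost of them lie 26 protein-coding genes, SLC6A4 left out, and many of these were not measured. Of the measured neighbours, 0 of 10 passed limma, against 0.908% of all genes, and 4 had an unadjusted p under 0.05, against 17.1% of all genes. BLMH, the bleomycin hydrolase gene and the next protein-coding gene at higher coordinates, was at 8.49 and 8.36 with LY294002, against 8.57, 8.68 and 8.50 with DMSO. Its difference was -0.16 ± 0.07 (limma adjusted p = 0.382). The next protein-coding gene on the other side, NSRP1, had no probe set of its own symbol here.

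Farther along, CPD, a carboxypeptidase gene, was at 8.38 and 8.04 with LY294002, against 7.79, 7.78 and 7.77 with DMSO. Its difference of 0.43 ± 0.11 was the widest among the neighbours and did not pass (limma adjusted p = 0.161). TRAF4, an adaptor of TNF receptors, differed by 0.24 ± 0.04 (limma adjusted p = 0.0765), CRLF3, a cytokine receptor-like gene, by 0.19 ± 0.06, and PIPOX, a peroxisomal oxidase, by -0.13 ± 0.05. The differences were 0.02 ± 0.10 for GOSR1, a Golgi SNARE, -0.04 ± 0.06 for the flotillin gene FLOT2, -0.04 ± 0.04 for GIT1 and -0.05 ± 0.04 for ADAP2, both regulators of ARF GTPases. For CRYBA1, a lens crystallin, it was -0.0023 ± 0.04. The measured neighbours thus lay on both sides of 0, with 4 above and 6 below it.

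**Figure D4:**
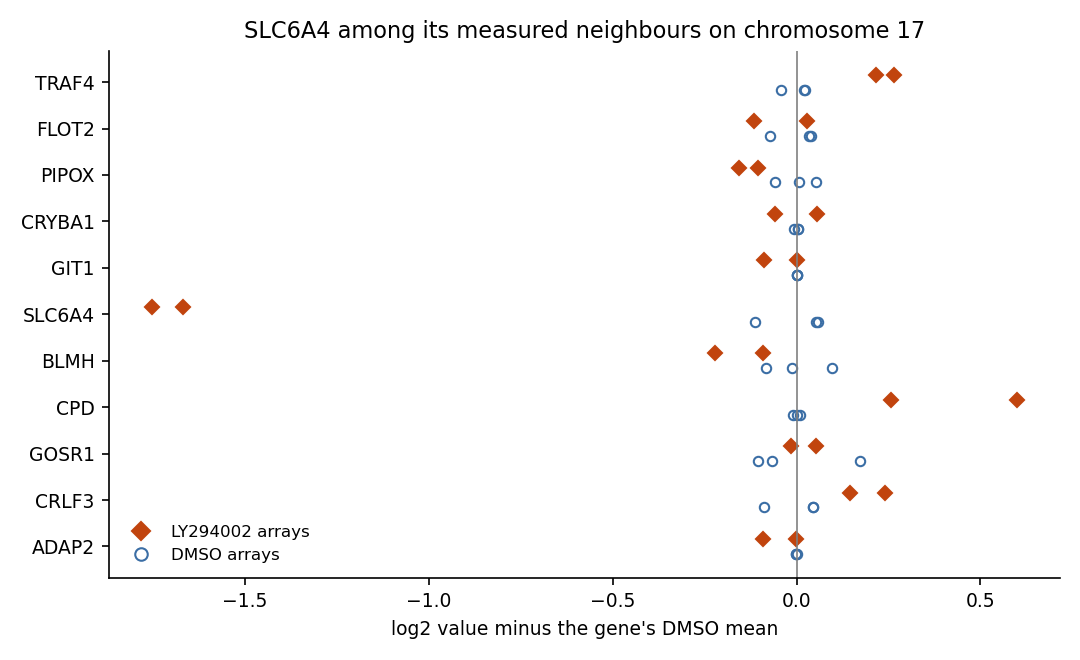
SLC6A4 and its 5 nearest measured neighbours on either side, in RefSeq order along chromosome 17 from lower coordinates at the top, as the log2 value minus each gene's DMSO mean (filled diamonds LY294002, open circles DMSO). The means of the neighbours differ by -0.16 to 0.43, and that of SLC6A4 by -1.71.

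Genes with a pattern like that of SLC6A4 were ranked by the root mean square distance, over the 5 arrays, between deviations from each gene's own DMSO mean. The nearest were TFEC at a distance of 0.20, BLNK at 0.22, MMP12 at 0.26, PCP4 at 0.35 and LGALS2 at 0.41, where the median gene was at 1.08. The next gene, the interferon-induced IFI27, followed at 0.45. All 5 are also among the 10 lowest differences, which the measure favours.

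TFEC was at 5.98 and 5.69 with LY294002, against 7.43, 7.86 and 7.75 with DMSO. BLNK, which links the B cell receptor to its downstream enzymes, was at 5.59 and 5.75 with LY294002, against 6.96, 7.40 and 7.07 with DMSO. In both, the LY294002 arrays lay below all DMSO arrays, as in the other 3 genes of the set and in 13.4% of all genes. In this set it follows largely from the measure that chose the genes and supports nothing further. MMP12 was at 9.62 and 9.29 with LY294002, against 10.68, 11.35 and 11.18 with DMSO, the widest DMSO range of the set. PCP4, a calmodulin-binding protein, was at 8.82 and 8.75 with LY294002, against 9.87, 10.03 and 9.94 with DMSO. LGALS2, a galectin, was at 6.76 and 6.69 with LY294002, against 7.68, 7.87 and 7.89 with DMSO. The lowest DMSO value minus the highest LY294002 value, a gap that is positive only in genes that fell, was largest in SLC6A4. This place rests on the contrast that chose the gene and supports nothing further. In the upstream stretches of TFEC, BLNK and LGALS2 the GC box and half-site letters were not found. The TFEC stretch held 1 match each to the SPIB and PU.1 core and the GATA site, which SLC6A4 lacked. For MMP12 and PCP4 no upstream stretch was available.

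**Figure D5:**
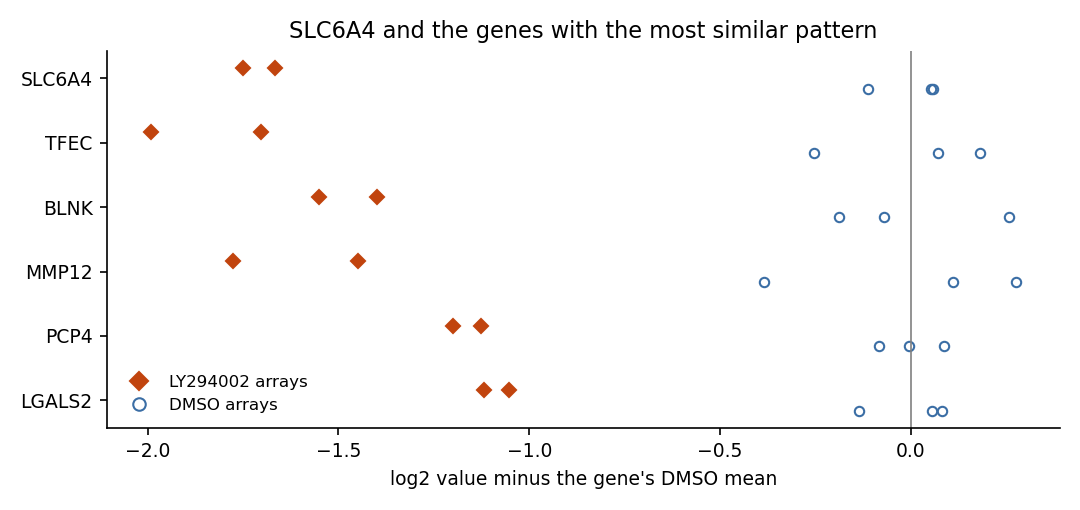
SLC6A4 and the 5 genes with the smallest root mean square distance to it, as the log2 value minus each gene's DMSO mean on each array (filled diamonds LY294002, open circles DMSO). The DMSO circles of MMP12 are spread most widely.

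The labelled cell type and other cells known for the transporter were checked through lists of markers, chosen with earlier results of these data known. All 10 measured markers of Hodgkin and Reed-Sternberg cells had a DMSO mean above the array medians, among them CD70 at 10.81 and 10.87 with LY294002, against 10.24, 10.27 and 10.43 with DMSO. Of these 10 markers 4, CD70 included, had a difference above 0 and 6 had one below it. Of platelet and megakaryocyte markers 4 of 10 lay above the medians, of mast cell markers 1 of 5, of serotonergic and enterochromaffin cell markers 1 of 7 (FEV), of monocyte markers 0 of 3 and of T cell markers 4 of 4. Over all genes the count was 3874 of 7713. Array values have no true zero, so a low marker is not shown to be absent. The mean over the platelet markers was 5.46 to 5.60 on the LY294002 arrays and 5.59 to 5.66 on the DMSO arrays, and over the mast cell markers 5.68 to 5.78 and 5.77 to 5.79. Of the platelet markers 0 of 10 and of the mast cell markers 0 of 5 passed limma, against 0.908% of all genes. An unadjusted p under 0.05 was found in 0 of either, against 17.1% of all genes. The median differences of the platelet and mast cell markers were -0.10 and -0.05. Among the T cell markers 0 of 4 passed, with a median of -0.13. The part of any of these markers in the SLC6A4 result was not tested.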

How the data were processed

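KM-H2 cells treated with LY294002 (2 arrays) or DMSO (3 arrays) were profiled on Affymetrix arrays. The deposited table holds log2 probe set values, and the submitters' processing notes name the R package affy. Its version, the background correction and the summary step are not stated in what was available here. The array quartiles were close, and the values were used without further normalization. For arrays, their number limits the precision.

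The 47 control probe sets were left out of 8793, and 8746 were fitted. In the platform's annotation 7840 had 1 gene symbol, 388 several and 518 none; 7838 of the 7840 identifiers were found in RefSeq and 0 symbols changed. A gene with several probe sets was represented by its brightest. Groups were compared with limma 3.58.1 in R 4.3.3 (lmFit and eBayes, 3 residual degrees of freedom), two-sided, with Benjamini-Hochberg adjustment over all probe sets at 0.05. Errors of differences are standard errors of this fit, which was also tested on simulated data. SLC6A4 and the gene lists were chosen with earlier results of these data known. Named are all SLC6 genes and neighbours, the 3 highest and 3 lowest of each other list with any member past the threshold, and the 5 genes most like SLC6A4; markers and other genes outside this rule were chosen after their values were seen. Alternatives were 3 normalizations, a filter on the dimmest 40% of probe sets, 3 variance or weight models, a replicate block, averaging of probe sets, removal of identical values, and each array left out. Plots used matplotlib 3.10.9 (Python 3.11.15).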

Additional observations from a re-analysis of the deposited data

How the results depend on the processing

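The SLC6A4 difference stayed between -1.76 and -1.67 over the 15 alternatives, within 1 pooled SD (0.09) of its value. Several of these could not move it. Leaving out dim or identical probe sets, changing the variance model without array weights, and averaging probe sets leave the values of its 1 probe set as they were. Only the normalizations, array weights, the replicate block and the removal of an array could change it. The largest absolute difference named the same 5 genes as most like SLC6A4. The count of probe sets called, 84 in the limma fit, was 348 after quantile normalization, 309 after cyclic loess, 178 after median centring, 240 of 5247 without dim probe sets, 587 of 5421 without identical values, 22 with array weights and 1 without variance moderation. With 1 array left out it was 0 to 4 (4 without DMSO replicate 1, 0 without any other single array), with 1064 to 2370 probe sets at an unadjusted p under 0.05 in these fits; where 1 LY294002 array is left, it is assumed to vary like the DMSO arrays. The numbers shared by replicates are not tied to a culture or day in the labels. Deviations of same-numbered arrays had a correlation of 0.0021 for number 1 and -0.21 for number 2. With 2 LY294002 arrays the deviations of 1 mirror those of the other. These correlations are therefore not separate checks and cannot settle whether the arrays were paired. With the replicate block 0 probe sets were called (925 at an unadjusted p under 0.05), and the SLC6A4 difference was -1.76. Some of the lists with 0 calls gained 1 call in some settings. Among trafficking and activity proteins SGK1 was the 1 call with quantile normalization, cyclic loess, and without dim or identical probe sets. QDPR was the 1 call among serotonin enzymes after quantile normalization. NR3C1 was the 1 call among transcription factors without identical values. Among neighbours TRAF4 was the 1 call after cyclic loess and CPD the 1 call without identical values. The cause was not tested.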

Other observations

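Among the markers of Hodgkin and Reed-Sternberg cells, IRF4, a transcription factor, was the 1 of 10 to pass the threshold (higher by 0.66 ± 0.07, limma adjusted p = 0.0473), where 0.609% of all genes were called higher. TNFRSF8, the gene of the surface marker CD30, was at 7.71 and 7.39 with LY294002, against 8.13, 8.49 and 8.09 with DMSO, a difference of -0.68 ± 0.17 that did not pass (limma adjusted p = 0.157). The T cell gene CD3D was at 8.70 and 8.71 with LY294002, against 8.72, 8.97 and 8.72 with DMSO.

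LY294002 replicate 1 was alone the lowest array for 31.7% of genes and LY294002 replicate 2 for 17.5%. Replicate 1 was alone the lowest for 9 of the 10 platelet markers, 5 of the 5 mast cell markers and 4 of the 4 T cell markers. The same held for 9 of the 16 serotonin synthesis, storage and breakdown genes and 6 of the 12 other SLC6 genes. Other lists lay near the share of all genes, with 6 of the 20 trafficking and activity proteins and 4 of the 13 transcription factors. Among the neighbours and among the Hodgkin and Reed-Sternberg markers it was 3 of 10 each. For SLC6A4 the lowest array was LY294002 replicate 2, and the difference without LY294002 replicate 1 was -1.75. Values identical on arrays of the same group were found in 38.1% of genes, in 5 of the 12 other SLC6 genes and in 6 of the 14 serotonin receptors; the 5 values of SLC6A4 all differ.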
